A study of Mus musculus with 6 samples.

Results

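Rasip1, its Rap1 partners and the genes of cerebral cavernous malformation are 10 of the 30768 genes in the deposited table of mouse bEnd.3 cells: Rasip1, Arhgap29, Radil, Rap1a, Rap1b, Krit1, Ccm2, Pdcd10, Heg1 and Cdc42. They were chosen by gene name with the changes in this experiment already known, above all that of Rasip1, so every value of theirs between the groups is given as a description and without a p-value. bEnd.3 is an endothelial line from mouse brain, and all 6 libraries come from it. In 3 libraries the cells are labelled control, with titles that name a mimic, and in the other 3 they overexpressed miR-423-5p, also by a mimic. Such mimics are synthetic RNAs that enter the cell's silencing machinery in place of the natural mature strand. The line was immortalised with polyomavirus middle T antigen. The dose, the time of harvest and any separate culturing of the replicates are not given in the labels, so the p-values of single genes measure only the spread between these libraries, which may be technical.

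Rap1 is a small GTPase that, when loaded with GTP, strengthens the adhesion of endothelial cells to each other and to the matrix. In endothelium it acts in part through Rasip1, which binds active Rap1 and, with Radil and the GTPase-activating protein Arhgap29, dampens RhoA at the junctions and opens the vessel lumen. Krit1, Ccm2 and Pdcd10 form the complex whose loss causes cerebral cavernous malformations, and the transmembrane receptor Heg1 brings Krit1 to the junction. The complex restrains the kinase MEKK3, and the transcription factors KLF2 and KLF4 lie downstream of that kinase.

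The sequence of the microRNA, and the places in these genes that match its seed, are shown first because they are what the mimic could pair with directly. The mature miR-423-5p is encoded at chr11:77078122-77078144 on the minus strand (RefSeq, GRCm38.p6), and its seed, bases 2 to 8, is in capitals.
miR-423-5p: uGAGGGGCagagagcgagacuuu
A search for the match to bases 2 to 8 (GCCCCTC), with or without a following A, and for the match to bases 2 to 7 followed by A (CCCCTCA), in the longest annotated 3' UTR found sites in 2 of the 10 genes, Cdc42 and Radil. Of 13878 tested genes with an annotated 3' UTR, 19.8% held a site, so the share among the 10 was near that of all genes. Cdc42 has 2 sites, at chr4:137320922-137320951 and chr4:137320376-137320405, both on the minus strand and without the following A. Radil has 1 site, at chr5:142485042-142485071 on the minus strand, with the following A, the 8mer that 3.69% of these genes hold. The windows below are 30 bases of the transcript in GRCm38 with the site in capitals.
Cdc42 site 1: ccattagtatgGCCCCTCcttgcccttcca
Cdc42 site 2: gacgctgtctcGCCCCTCtttctaggatgc
Radil site: gcactcaccctGCCCCTCAcaccccagtcc
No site was found in the longest 3' UTR of Rasip1 (209 bases), Rap1b (1940), Rap1a (1727), Krit1 (3361), Ccm2 (383), Pdcd10 (1030), Arhgap29 (1778) or Heg1 (4766). A match is a description of the sequence and does not show that the microRNA binds there.

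Levels of a gene in each library are given in CPM, read counts relative to library size after scaling by TMM, a factor that evens out differences in RNA composition. Values after ± are SDs over the 3 libraries of a group unless called an SE. A gene was called where its Benjamini-Hochberg adjusted p was under 0.05 in edgeR's quasi-likelihood test over 18103 genes. All 10 genes passed the filter on low counts. Of them 2 were called higher in the miR-423-5p cells, Rasip1 and Rap1b, where 9.09% of all tested genes were, and 1 was called lower, Cdc42, where 7.21% were. For these genes the groups were also fully apart, 2 with every miR-423-5p library higher (18.8% of all tested genes) and 1 with every one lower (19.6%). The median log2 fold change was 0.15 over the 10 genes and -0.02 over all genes tested. As the genes were chosen on this comparison, nothing is read from these counts. With libraries scaled to total counts only, the median of all genes moved to -0.18, and changes below are relative to the TMM scaling.

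**Figure D1:**
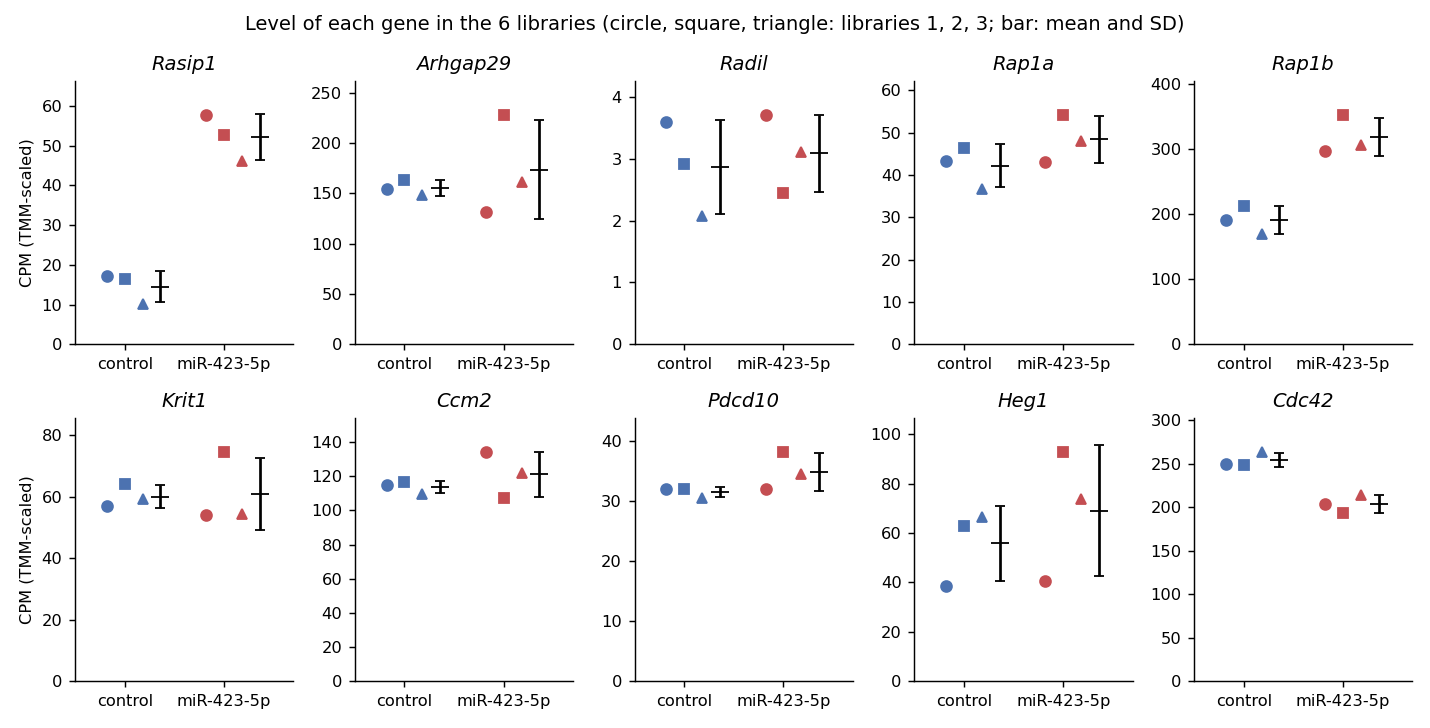
CPM of each of the 10 genes in the 6 libraries (y axis, from 0), with control libraries in blue, miR-423-5p libraries in red and the group mean and SD in black (n = 3). Rasip1 and Rap1b stand higher in every miR-423-5p library than in any control, Cdc42 stands lower, and the groups overlap for the other 7 genes.

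The libraries expressed the genes that define endothelium. The summed level of 10 endothelial markers was 2476 to 2740 CPM in the controls and 4469 to 4604 CPM in the miR-423-5p libraries, and 9 of the 10 markers were called higher. Cldn5, a tight junction gene of brain endothelium, was near 0 in both groups, at 0.16 ± 0.0484 and 0.47 ± 0.291 CPM. The summed level of 9 pericyte and fibroblast markers was 76.5 to 183 CPM in the controls, lowest in control 3, and 18.1 to 25.2 CPM in the miR-423-5p libraries, and 5 of the 9 were called lower. No marker of either list was at 0 in all 3 libraries of a group. In bulk RNA a change in the share of a cell type and a change in RNA per cell cannot be told apart. Total counts ran from 63217696 to 78456344 per library. Control 3 stood apart by transcripts of other cell types. The macrophage marker Adgre1 reached 25.1 CPM there, while no other library exceeded 0.059 CPM, and the neuron marker Map2 was at 18.4 CPM against at most 0.118 CPM. The 6 macrophage markers summed to 578 to 824 CPM in the controls and 707 to 987 CPM with miR-423-5p, mostly Cd68, and the 6 neuron markers to 41.8 to 100 CPM and 122 to 148 CPM, mostly Nefl; 1 and 2 of them were at 0 in all miR-423-5p libraries. Their part in the results was not tested. Without control 3 the log2 fold changes were 1.64 for Rasip1 and 0.66 for Rap1b, both called, and -0.29 for Cdc42, not called. The Cdc42 call was also lost when control 1, control 2, miR-423-5p 1 or miR-423-5p 3 was left out. The Mir423 gene had at most a few counts in any library and cannot check the labels, since a mimic is not transcribed from it.

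Rasip1 encodes the Ras-interacting protein that binds active Rap1 in endothelial cells, and it lies at chr7:45627488-45639093 on the plus strand (GRCm38). It stood at 17.1, 16.3 and 10.1 CPM in controls 1 to 3 and at 57.7, 52.8 and 46.2 CPM, in the same order, with miR-423-5p. The lowest miR-423-5p library was well above the highest control, and control 3 was the low one of its group at 0.607 of the mean of the other two. From 14.5 ± 3.81 to 52.2 ± 5.74 CPM it was 3.60-fold higher, a log2 fold change of 1.85 ± 0.20 (SE). By fold it was number 7 of the 1304 genes called higher that reached a mean of 5 FPKM in either group. It was number 99 of all 18103 genes tested, and its choice on this fold partly fixes both orders. It was called in each of the 11 alternative analyses, with log2 fold changes of 1.64 to 1.98. The endothelial markers were also higher in the same libraries. Per 1000 CPM of their summed level, a ratio chosen after seeing the data, Rasip1 was at 4.09 to 6.54 CPM in the controls and 10.3 to 12.9 CPM in the miR-423-5p libraries. This is a description only, since Rasip1 was chosen for its change in these libraries, and the part of the endothelial markers in that change was not tested.

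The genes next to Rasip1 were hardly expressed. Its interval overlaps Izumo1, a sperm gene on the same strand, and the opposite-strand transcripts Gm45437 and A030001D20Rik. Izumo1 had 17 to 40 counts in a library, A030001D20Rik 42 to 102 and Gm45437 0 to 6, against 742 to 4028 for Rasip1. Reads of one of these genes that were assigned to another cannot be seen in such counts. Mamstr, the next gene downstream, was at 0.339 ± 0.0646 and 0.746 ± 0.281 CPM without and with miR-423-5p (log2 fold change 1.13 ± 0.41, SE; adjusted p = 0.102 by edgeR). Izumo1 and A030001D20Rik were not called either (edgeR adjusted p = 0.294 and 0.0994), although for both, as for Mamstr, every miR-423-5p library was above every control. Upstream, Fgf21 and Fut1 had too few counts to be tested.

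Radil, which encodes a relative of Rasip1 with the same kind of Ras-binding region, is at chr5:142484839-142551098 on the minus strand and was the least abundant of the 10 genes. It stood at 3.60, 2.92 and 2.08 CPM in controls 1 to 3 and at 3.71, 2.46 and 3.11 CPM, in the same order, with miR-423-5p. The groups overlapped throughout, and the log2 fold change of 0.11 ± 0.27 (SE) was within its error. It is the gene with the 8mer site shown above. In the same libraries the ratio of Rasip1 to Radil in FPKM, a level per transcript length and library size, was 7.16 to 8.44 in the controls and 22.5 to 32.6 with miR-423-5p.

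Arhgap29 encodes the GTPase-activating protein for RhoA that Rasip1 recruits, at chr3:121952541-122016753 on the plus strand. It stood at 154, 163 and 148 CPM in controls 1 to 3 and at 132, 227 and 161 CPM, in the same order, with miR-423-5p. The controls lay close together, while miR-423-5p 2 was the high one of its group at 1.55 times the mean of the other two and miR-423-5p 1 was below every control. The log2 fold change was 0.16 ± 0.18 (SE), and it was -0.07 without miR-423-5p 2. The ratio of Arhgap29 to Rasip1 in FPKM was 3.28 to 5.31 in the controls and 0.829 to 1.56 in the miR-423-5p libraries. In miR-423-5p 1 Arhgap29 was thus below Rasip1 by FPKM. By CPM, which is not divided by length, Arhgap29 was above Rasip1 in every library.

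Rap1b and Rap1a encode the closely related forms of Rap1. Their coding sequences are both 555 bases long in GENCODE M21, with 102 differing bases and 81.6% identity, and the longest stretch they share without a difference is 20 bases, which is shorter than the 150-base reads that the labels' protocols name. The first 120 bases of each are shown because the reads have to be told apart by such differences. The 17 differing bases are in capitals.
Rap1a coding start: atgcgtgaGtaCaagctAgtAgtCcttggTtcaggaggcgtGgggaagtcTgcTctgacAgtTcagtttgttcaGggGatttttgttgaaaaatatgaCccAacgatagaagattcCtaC
Rap1b coding start: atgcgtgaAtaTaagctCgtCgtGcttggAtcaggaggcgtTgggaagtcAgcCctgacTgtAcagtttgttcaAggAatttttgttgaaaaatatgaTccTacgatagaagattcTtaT

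Rap1b, at chr10:117813871-117846035 on the minus strand, was the more abundant and was called higher. It stood at 191, 212 and 170 CPM in controls 1 to 3 and at 297, 351 and 306 CPM, in the same order, with miR-423-5p. Every miR-423-5p library was above every control, and control 3 was again the lowest. From 191 ± 21.3 to 318 ± 29.2 CPM it was 1.67-fold higher, a log2 fold change of 0.74 ± 0.11 (SE), and it was called in all 11 alternatives with 0.58 to 0.82. Per 1000 CPM of summed endothelial markers, again a ratio chosen after seeing the data, it was at 68.5 to 85.0 CPM in the controls and 66.4 to 76.3 CPM in the miR-423-5p libraries, and on that scale the groups overlapped. The part of the markers in its change was likewise not tested.

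Rap1a, at chr3:105727267-105801336 on the minus strand, was not called. It stood at 43.4, 46.5 and 36.5 CPM in controls 1 to 3 and at 43.1, 54.1 and 47.9 CPM, in the same order, with miR-423-5p. The lowest miR-423-5p library was beside the middle control, and the log2 fold change was 0.20 ± 0.12 (SE). The FPKM of Rap1b was 3.98 to 4.20 times that of Rap1a in the controls and 5.77 to 6.22 times in the miR-423-5p libraries. The ratio was steady within each group and the groups did not overlap. Taken as a sum, Rap1a and Rap1b were at 206 to 259 CPM in the controls and 340 to 405 CPM with miR-423-5p. The 4 transcripts whose intervals overlap Rap1a on its strand had at most 35 counts in any library.

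Krit1, Ccm2 and Pdcd10, the genes of the cerebral cavernous malformation complex, were not called. Krit1, which binds Rap1 and Heg1 (chr5:3803184-3844303, plus strand), stood at 56.9, 64.0 and 59.2 CPM in controls 1 to 3 and at 54.1, 74.6 and 54.3 CPM, in the same order, with miR-423-5p. Its log2 fold change was 0.02 ± 0.14 (SE), with miR-423-5p 2 above and the other miR-423-5p libraries below every control. Ccm2, the scaffold that binds MEKK3 (chr11:6546887-6596744, plus strand), stood at 115, 117 and 110 CPM in controls 1 to 3 and at 134, 108 and 122 CPM, in the same order, with miR-423-5p. Its log2 fold change was 0.09 ± 0.09 (SE), and here miR-423-5p 2 was the lowest of all libraries. Pdcd10, which binds the kinases STK24, STK25 and STK26 (chr3:75516490-75556856, minus strand), stood at 32.0, 32.0 and 30.6 CPM in controls 1 to 3 and at 32.0, 38.2 and 34.5 CPM, in the same order, with miR-423-5p. Its log2 fold change was 0.15 ± 0.10 (SE), and miR-423-5p 1 was level with the controls. With total-count scaling the log2 fold changes of Krit1, Ccm2 and Pdcd10 were -0.13, -0.07 and -0.01, of the other sign, and not called.

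Within a library the 3 genes differed in level. In the controls the FPKM of Ccm2 was 10.9 to 12.1 times that of Krit1, and that of Pdcd10 was 3.72 to 4.18 times that of Krit1. By CPM the order of Krit1 and Pdcd10 was the reverse, at 60.0 ± 3.63 and 31.5 ± 0.819 CPM in the controls. The size of these ratios thus depends on the length that FPKM divides by, which was not checked. In the miR-423-5p libraries the ratio of Ccm2 to Krit1 was 14.8, 8.60 and 13.4 in libraries 1, 2 and 3, so that library 2 was below every control and the other two above. The ratio of Ccm2 to Pdcd10 was 2.87 to 2.92 in the controls, and with miR-423-5p it was 3.36, 2.26 and 2.83 in the same order. The ratio of Pdcd10 to Krit1 was 3.81 to 4.72 with miR-423-5p. The groups overlapped for all 3 ratios, and those with Ccm2 were spread to both sides of the controls.

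Heg1, the receptor of the complex (chr16:33684370-33769443, plus strand), varied most among the libraries of a group. It stood at 38.3, 62.8 and 66.4 CPM in controls 1 to 3 and at 40.5, 92.8 and 74.0 CPM, in the same order, with miR-423-5p. Library 1 was the low one of both groups, at 0.593 and 0.486 of the mean of the other two. The log2 fold change of 0.31 ± 0.31 (SE) was no larger than its error, and it ran from 0.05 without miR-423-5p 2 to 0.58 without miR-423-5p 1, not called in either. The coefficient of variation was 27.4% in the controls and 38.3% in the miR-423-5p libraries. For Cdc42 these were 3.23% and 5.10%.

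Cdc42, the small GTPase of cell polarity and lumen formation (chr4:137319696-137357720, minus strand), was the one gene of the set called lower. It stood at 250, 249 and 264 CPM in controls 1 to 3 and at 203, 194 and 214 CPM, in the same order, with miR-423-5p. No miR-423-5p library reached the lowest control. From 254 ± 8.21 to 204 ± 10.4 CPM it was 1.25-fold lower, a log2 fold change of -0.32 ± 0.07 (SE). Its 3' UTR of 1407 bases holds the 2 sites shown above. The call was lost when control 1, control 2, control 3, miR-423-5p 1 or miR-423-5p 3 was left out, with log2 fold changes of -0.33, -0.33, -0.29, -0.31 and -0.33. With total-count scaling it was -0.48 and called.

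**Figure D2:**
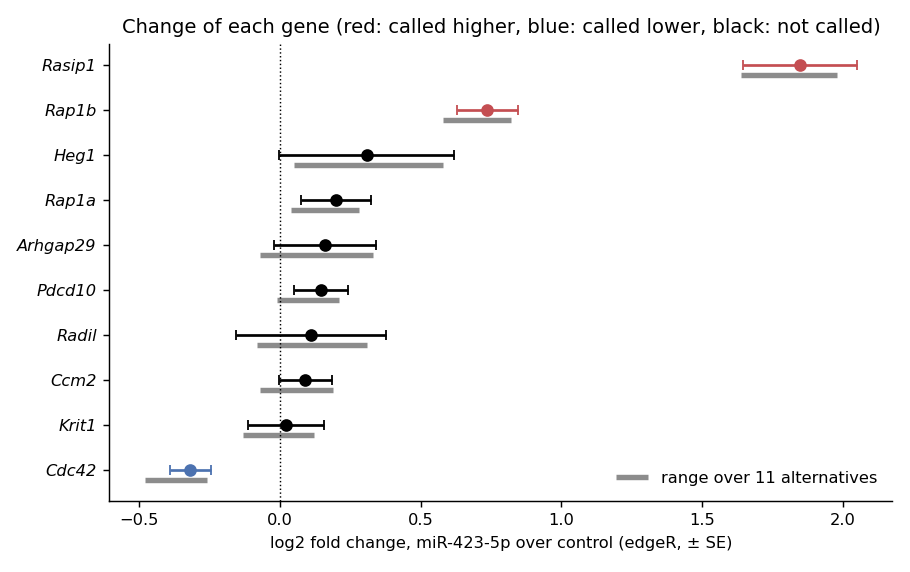
Log2 fold change of each gene, miR-423-5p over control (points, with the SE from edgeR), and in grey the range of its value over the 11 alternative analyses. Rasip1 (1.85) and Rap1b (0.74) lie to the right and Cdc42 (-0.32) to the left of 0 in every alternative, while the ranges of Arhgap29, Radil, Krit1, Ccm2 and Pdcd10 include values on both sides of 0.

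Levels of different genes are set side by side by FPKM, which the authors deposited and which carries no TMM factor. The length that it divides by was not checked, and the order differs from that of CPM. In the controls Krit1, at 60.0 CPM, was above Pdcd10 (31.5 CPM) and Rasip1 (14.5 CPM), but in FPKM it was below both. In the controls the order was Cdc42 (84.9 ± 5.28 FPKM), Rap1b (65.4 ± 6.13), Ccm2 (30.7 ± 0.435), Arhgap29 (17.4 ± 0.67), Rap1a (16.0 ± 1.57), Pdcd10 (10.6 ± 0.0859), Rasip1 (4.46 ± 1.06), Heg1 (4.36 ± 1.28), Krit1 (2.72 ± 0.183) and Radil (0.584 ± 0.139). The ranges of Arhgap29 and Rap1a overlapped, as did those of Rasip1 and Heg1, and the other neighbours in this order were apart. In the miR-423-5p libraries Rap1b (96.4 ± 12.3 FPKM) stood above Cdc42 (59.8 ± 0.642 FPKM), in place of below it. Rasip1, at 14.3 ± 1.91 FPKM, moved up past Pdcd10 (10.4 ± 1.25) to the range of Rap1a (16.2 ± 2.31) and Arhgap29 (17.3 ± 5.46), and the ranges of those 3 genes overlapped, as did those of Heg1 and Krit1. Among all tested genes its mean went from percentile 56.0 to 80.0, while Radil stayed in the low range at percentiles 26.8 and 29.1.

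**Figure D3:**
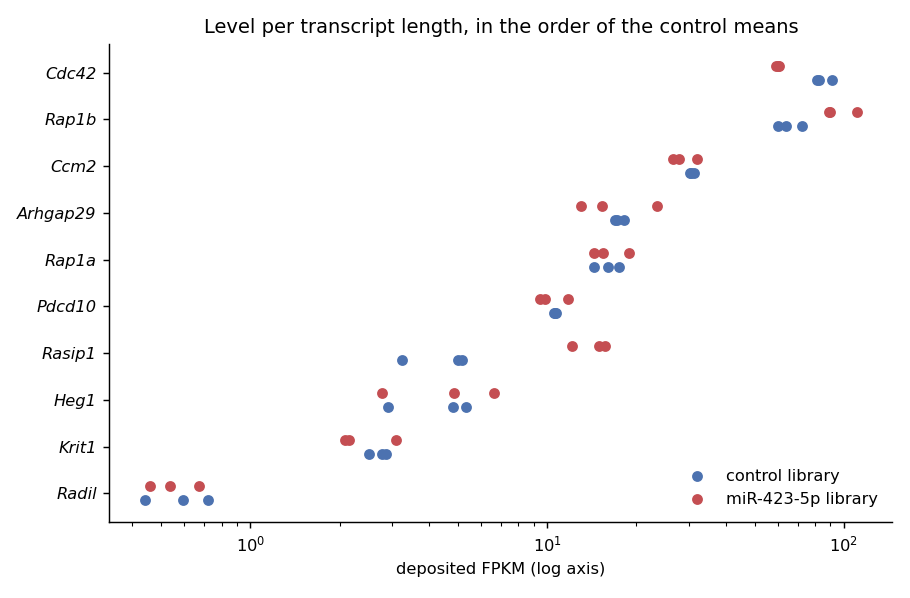
Deposited FPKM of the 10 genes (x axis, logarithmic) in each control library (blue) and each miR-423-5p library (red), ordered by the control mean. The genes span from 0.441 FPKM for Radil to 111 FPKM for Rap1b, and Rasip1 shows the widest gap between the colours.

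The genes whose profile was most like that of Rasip1 were found by the root mean square difference of log2(CPM over the control mean) across the 6 libraries, among 7095 genes that reached 5 FPKM in their higher group. They were the organic anion transporter gene Slco4a1 (difference 0.14 on the log2 scale), Pbp2 (0.16), the flow-responsive transcription factor gene Klf2 (0.17), the fenestral diaphragm gene Plvap (0.17) and the Notch receptor gene Notch4 (0.19). Plvap went from 205, 177 and 120 CPM in controls 1, 2 and 3 to 569, 493 and 480 CPM, in the same order, with miR-423-5p. Klf2 went from 45.8, 50.2 and 32.8 to 149, 128 and 131 CPM in the same order. Their likeness to Rasip1 in each library, the low value in control 3 included, is what they were selected on. Reads of Pbp2 may also map to its close relatives, which makes its value uncertain. The same 5 genes were found with total-count scaling.

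**Figure D4:**
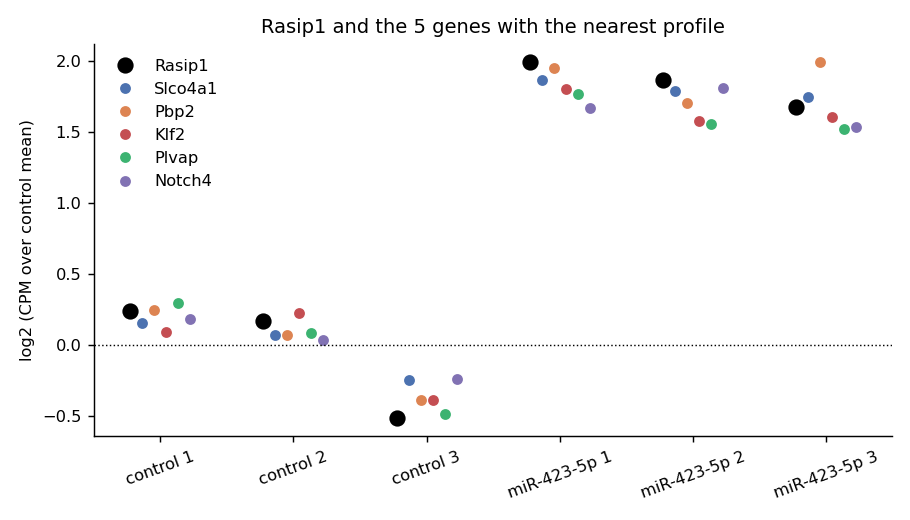
Log2 of CPM over the control mean (y axis) for Rasip1 (black) and the 5 genes with the nearest profile, in each of the 6 libraries. In the miR-423-5p libraries all 6 genes lie between 1.52 and 1.99; the 5 were picked for lying near Rasip1.

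Beyond the 10 genes, 85 genes of 7 lists around Rap1, Cdc42 and the cavernous malformation complex were counted. Of 84 tested, 26 rose and 6 fell, and their median log2 fold change was 0.17 against -0.02 for all genes. In the same fit 9.09% of all genes rose and 7.21% fell. Leaving out control 1 gave 14 that rose, leaving out control 2 gave 12 and leaving out miR-423-5p 3 gave 17. Over all genes the 1646 that rose went to 736, 570 and 743 in these fits, so the calls of the lists moved together with those of all genes. Those that fell were 2 when control 1 or control 2 was dropped, 3 when control 3 or miR-423-5p 3 was dropped, 11 when miR-423-5p 2 was dropped, 10 under total-count scaling, 3 with no filter on low counts and 11 by DESeq2. Over all genes the 1305 that fell went to 426 and 372, to 868 and 487, to 1836, to 2569, to 759 and to 1814, in the same order. Of the 26 that rose 7 had a seed site in the longest 3' UTR, as did 1 of the 6 that fell, Pak4, and 15 of the 52 that were not called. Of 13878 tested genes with an annotated 3' UTR, 19.8% held a site, and nothing is read from these counts.

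Of 9 exchange factors, which load Rap1 with GTP, 5 rose and 1 fell. Rapgef3, the cAMP-activated factor EPAC1, rose 1.54-fold from 90.0 ± 1.31 to 139 ± 13.6 CPM (adjusted p by edgeR = 0.00448). Rapgef4, its relative EPAC2, rose 1.94-fold (edgeR adjusted p = 0.00573), Rapgef5 2.06-fold (0.0119), Rasgrp3 1.56-fold (0.00818) and Rapgef1 1.36-fold (0.00867). Rasgrp2 fell from 1.13 ± 0.165 to 0.287 ± 0.0437 CPM (edgeR adjusted p = 0.00798), a low level in both groups. Rapgef1, Rasgrp3 and Rapgef3 were the abundant ones of those called, at 90.0 to 267 CPM in the controls. Without control 2, 3 of the list rose, and without miR-423-5p 2, 2 fell.

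Of 7 GTPase-activating proteins, which switch Rap1 off, 2 rose and none fell (edgeR and DESeq2, with 0 lower at an unadjusted p under 0.05). Sipa1l2 rose by 1.07 on the log2 scale, from 55.5 ± 1.08 to 117 ± 10.4 CPM (adjusted p by edgeR = 0.000815), and Rasa3, which acts on Ras and Rap1, rose 1.43-fold (edgeR adjusted p = 0.00904). The most abundant of the list, Sipa1, was at 330 ± 70.1 and 378 ± 35.4 CPM (edgeR adjusted p = 0.444). Without control 2, 1 of the list rose. Members of the lists with opposite action on Rap1 were thus among the genes that rose.

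Of 10 effectors and partners of Rap1, 3 rose and 1 fell. Magi1, a junctional scaffold, rose 1.89-fold from 54.5 ± 2.69 to 103 ± 5.41 CPM (adjusted p by edgeR = 0.000876). Arap3, a GTPase-activating protein that Rap1 binds, rose 1.58-fold (edgeR adjusted p = 0.00226), and Tln1, the talin that activates integrins, 1.39-fold (0.0101). Tiam1, an exchange factor for Rac, fell from 9.77 ± 1.01 to 5.14 ± 1.34 CPM (edgeR adjusted p = 0.0237). That decrease was not called when control 2, control 3, miR-423-5p 1 or miR-423-5p 3 was left out, or with no filter on low counts, where each time 2 of the list were lower at an unadjusted p under 0.05. Total-count scaling or DESeq2 gave 2 that fell. The junctional effector Afdn was at 130 ± 2.46 and 133 ± 28.6 CPM (edgeR adjusted p = 0.882).

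RhoA, the kinases ROCK1 and ROCK2 and non-muscle myosin drive the contraction that Rasip1 and Arhgap29 hold in check. Of 12 such genes 3 rose and 1 fell. Rhoa rose 1.37-fold from 287 ± 14.5 to 393 ± 26.4 CPM (adjusted p by edgeR = 0.0115), Rhoc 1.55-fold (0.0222) and the myosin light chain gene Myl12b 1.36-fold (0.0349). The smooth muscle light chain gene Myl9 fell (edgeR adjusted p = 0.0114). It was at 0.427, 0.233 and 0.738 CPM in controls 1 to 3 and at 0 counts in each miR-423-5p library. The control mean of 0.466 ± 0.255 CPM was 10.5 times the mean level that 3 counts, the floor used here, would give in the miR-423-5p libraries. This bound is for the means, and the lowest control was nearer to the floor. The pericyte and fibroblast markers moved between the same groups, and their part in the fall of Myl9 was not tested. None of the list rose with edgeR without control 1 or control 2, where 4 were higher at an unadjusted p under 0.05. Leaving out miR-423-5p 3, or scaling to total counts, left 1 that rose. Without control 1 none fell, with 1 lower at an unadjusted p under 0.05, and without miR-423-5p 2, 2 fell.

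Of 20 effectors and regulators of Cdc42, 3 rose and 2 fell, and the median log2 fold change was -0.0038. The kinase gene Cdc42bpb rose 1.39-fold from 320 ± 12.6 to 444 ± 32.0 CPM (adjusted p by edgeR = 0.00994), Cdc42ep2 1.84-fold (0.0206) and the scaffold gene Iqgap1 1.33-fold (0.0309). The kinase gene Pak4 went from 49.8 ± 1.74 to 34.8 ± 5.17 CPM (edgeR adjusted p = 0.0244), and the polarity gene Pard3 from 62.7 ± 3.57 to 44.3 ± 7.31 CPM (edgeR adjusted p = 0.0328), and both fell. With control 1 or control 2 left out, edgeR called none in either direction, where 4 and 3 were higher and 5 and 5 lower at an unadjusted p under 0.05. Leaving out control 3 or miR-423-5p 3 also left none that fell (6 and 3 lower at an unadjusted p under 0.05), and leaving out miR-423-5p 1 left 1. Leaving out miR-423-5p 3 left 1 that rose. Total-count scaling gave 4 that fell and DESeq2 gave 5. With no filter on low counts edgeR gave none, with 6 lower at an unadjusted p under 0.05.

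Of 15 partners and outputs of the cavernous malformation complex 14 were tested, 8 rose and 1 fell. Klf2 rose 3.17-fold from 42.9 ± 9.07 to 136 ± 11.8 CPM (adjusted p by edgeR = 0.00124) and Klf4 1.76-fold from 43.6 ± 4.69 to 76.6 ± 10.8 CPM (edgeR adjusted p = 0.00632). Ccm2l, the relative of Ccm2 that endothelial cells express, rose 2.17-fold from 16.1 ± 1.57 to 34.9 ± 2.58 CPM (edgeR adjusted p = 0.00147). Among the outputs, the nitric oxide synthase gene Nos3 and the thrombomodulin gene Thbd rose 2.30-fold and 1.44-fold (edgeR adjusted p = 0.000815 and 0.0317). Both are known targets of KLF2 in endothelium. The protease genes listed as outputs went different ways. Adamts4 rose 2.32-fold (edgeR adjusted p = 0.00856), while Adamts5 fell from 1.03 ± 0.139 to 0.149 ± 0.0937 CPM (edgeR adjusted p = 0.0164). Adamts1 was not called, at 34.9 ± 3.76 and 42.8 ± 13.8 CPM (edgeR adjusted p = 0.371). Of the genes that encode binding partners of the complex, Stk25 rose 1.31-fold (edgeR adjusted p = 0.0214) and Itgb1bp1, which encodes the Krit1 partner ICAP1, 1.28-fold (0.0399).

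The kinase genes between the complex and the KLF genes were not called. Map3k3, which encodes MEKK3, was at 55.8 ± 3.74 and 44.7 ± 11.3 CPM (log2 fold change -0.32 ± 0.17, SE; edgeR adjusted p = 0.229). Map2k5 was at 29.1 ± 1.63 and 33.0 ± 1.42 CPM (edgeR adjusted p = 0.214), and Mapk7, which encodes ERK5, at 51.6 ± 3.58 and 49.6 ± 6.40 CPM (edgeR adjusted p = 0.763). Stk24 was at 27.9 ± 2.84 and 28.3 ± 3.04 CPM (edgeR adjusted p = 0.929), and Stk26 had too few counts to be tested. Leaving out control 1, control 2 or miR-423-5p 3, or scaling to total counts, left 5 of the list that rose. None fell with edgeR without control 1 or control 2, with 1 lower at an unadjusted p under 0.05, and 2 fell without miR-423-5p 2 or with DESeq2. The endothelial marker genes, 9 of 10 higher, moved with this list, and their part in it was not tested. The list was chosen with earlier results of these data known and is no independent evidence of a direction.

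Of 12 relatives of Rap1 and Cdc42, 2 rose and none fell (edgeR, with 2 lower at an unadjusted p under 0.05, and none fell with DESeq2). Rras, which like Rap1 promotes integrin adhesion, rose 1.87-fold from 30.4 ± 7.53 to 56.9 ± 9.10 CPM (adjusted p by edgeR = 0.0221), and Nras rose 1.24-fold (edgeR adjusted p = 0.0461). Rap2c was at 35.1 ± 3.77 and 48.2 ± 9.22 CPM (edgeR adjusted p = 0.0787), and Rac1, the most abundant of the list, at 340 ± 63.1 and 388 ± 14.8 CPM (0.374). The number that rose was 1 when control 1 or control 3 was left out, with total-count scaling, with no filter on low counts or with a block on the replicate number. With control 2, miR-423-5p 1 or miR-423-5p 3 left out, edgeR called none higher, where each time 3 were higher at an unadjusted p under 0.05. With total-count scaling or without miR-423-5p 2, 1 fell.

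**Figure D5:**
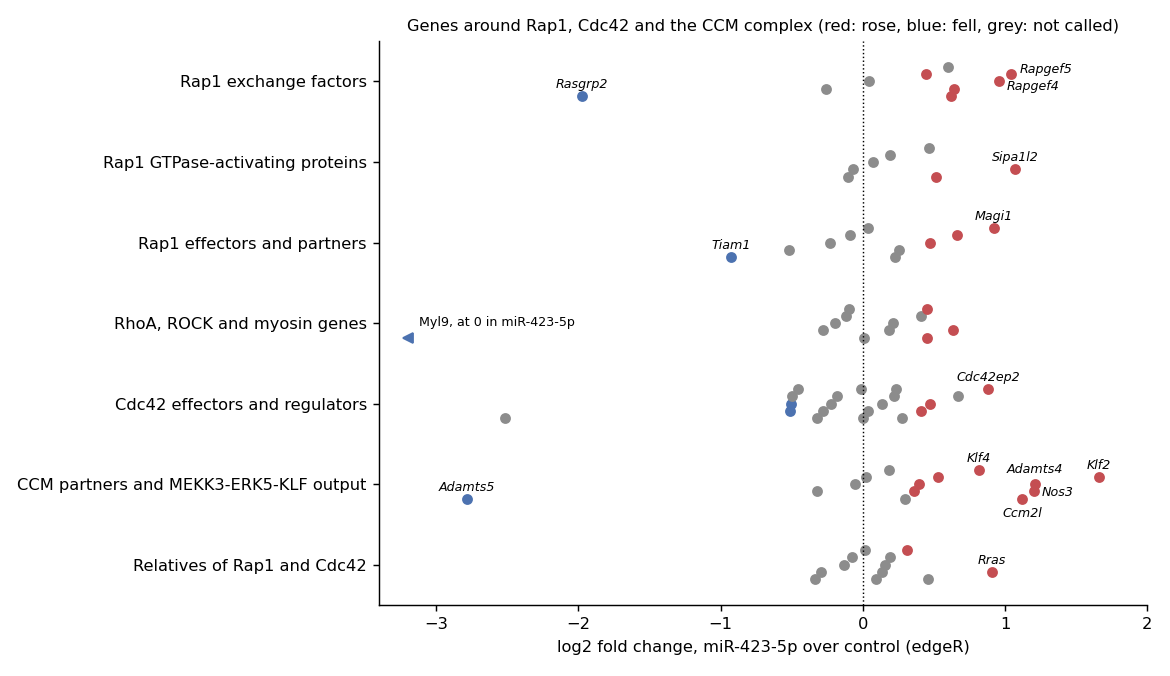
Log2 fold change, miR-423-5p over control, of each tested gene in the 7 lists (red rose, blue fell, grey not called); the arrow at the left edge is Myl9, which had no count in the miR-423-5p libraries. The list of partners and outputs of the complex holds the gene farthest to the right, Klf2 (1.66), and the Cdc42 list is spread about 0.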

How the data were processed

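Polyadenylated RNA of 6 bEnd.3 libraries was prepared so that strand is marked and read as pairs of 150 bases, according to the protocols in the labels. Per the file headers, the authors deposited whole-number read counts and FPKM values for each gene. The submitters' processing notes name GRCm38, edgeR, DESeq2, StringTie 2.1.6, HISAT2 2.2.1 and cutadapt 1.9, without a role. How reads were counted, and with which strand setting, is not given in the sources used here. Genes that overlap are therefore uncertain. Positions are those of the table; for Krit1 and Heg1 they differ from GENCODE M21, and for the other 8 genes they are the same.

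Counts were tested with edgeR 4.0.16 in R 4.3.3 (filterByExpr, TMM, glmQLFit, glmQLFTest, group only; Benjamini-Hochberg over 18103 genes; threshold 0.05), checked on simulated data. The SE is the log2 fold change over the square root of F. The floor for a library without a read of a gene was 3 counts (0.0382 to 0.0475 CPM before TMM scaling), which covers counting error alone. The bound for Myl9 used this floor after TMM scaling, on average 0.0444 CPM in the miR-423-5p libraries. Alternatives, 11 in all, were DESeq2 1.42.0, DESeq2 size factors, total counts, no filter, a block on the replicate number and leaving out each library. Genes, lists and tests were chosen with earlier results of these data known. Named genes were the 10, in each list the called ones and up to 3 of smallest p, the 5 most like Rasip1, and its neighbours and overlaps. A few abundant, upstream or output genes of the lists were named after their values were seen. Seed sites were searched in GENCODE M21 transcripts with Python 3.11.15.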

Additional observations from a re-analysis of the deposited data

How the results depend on the processing

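Under the 11 alternatives Rasip1 and Rap1b were called higher every time. Of the 10 genes, the number called lower, 1, was 0 to 1 when single libraries were left out and 1 under the others. The pathway count that rose, 26, was 12 to 27 with single libraries left out and 19 to 29 under the other alternatives, and the count that fell, 6, was 2 to 11, with 10 under total-count scaling, 3 without a filter on low counts and 11 with DESeq2. Several log2 fold changes of genes that were not called changed sign. They were -0.07 for Arhgap29 without miR-423-5p 2, -0.05 for Radil with total counts, -0.08 without control 3 and -0.04 without miR-423-5p 1, -0.13 for Krit1 with total counts and without miR-423-5p 2 and -0.01 without control 1, and -0.07 for Ccm2 and -0.01 for Pdcd10 with total counts. With single libraries left out the highest values of these genes were 0.33 for Arhgap29, 0.31 for Radil and 0.12 for Krit1. Total-count scaling lowers all values by construction, and the cause of the others was not tested. The number of genes with a seed site, 2, was the same in every annotated 3' UTR. With a block on the replicate number 2 of the genes were called higher and 1 lower, and 24 and 7 pathway genes rose and fell. Heg1 was at 0.27 ± 0.12 (SE) with the block, still not called. The deviations of libraries of the same number correlated little across genes (r of 0.0749, -0.0264 and 0.0498). For Heg1, library 1 was the low one of both groups. Such correlations cannot show whether libraries of the same number share more than the number, and the labels do not say.

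With 3 libraries a group, and no statement that these were separate cultures, small changes such as those of Rap1a and Pdcd10 cannot be settled, and protein and Rap1 activity were not measured. Radil, Rasgrp2, Adamts5 and Myl9 rest on low counts.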
